A study of Homo sapiens with 6 samples.

Results

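BT474 cells that carried the long variant of the lncRNA NR2F1-AS1 (BT474-Var1) were compared with Control BT474 cells, transfected with the vector alone, on 4 of the 6 arrays of the study, 2 per group. The comparison used the 31711 of 58201 non-control probes (24526 of 43403 gene names) that the software marked as well above background on each of a group's arrays, for Control, BT474-Var1 or both. BT474 is an ER-positive and HER2-positive luminal breast cancer cell line. The vector of the Control cells was empty pcDNA3.1, and BT474-Var1 cells were transfected with NR2F1-AS1 variant 1 in pcDNA3.1, for which the methods name pcDNA3.1/Hygro(+). The third group, BT474-Var4, carried the short variant 4, in pcDNA3.1-P2A-eGFP by the methods. Its arrays enter the estimate of the spread in the fit, and its levels are otherwise given only for comparison. All groups were grown in RPMI-1640 with fetal bovine serum and had gone through nucleofection and antibiotic selection. The study describes the variant-transfected populations as surviving colonies, which grew after the cells had been reduced to a few. The sources used here give neither the number of clones in a population nor how long the cells of these arrays had been in culture. Which of the empty plasmids the Control arrays stand for is not given either. The labels do not say whether arrays A and B of a group came from separate cultures, so the p-values measure only the spread between these samples, which may be technical.

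NR2F1-AS1 is transcribed from chromosome 5 in the direction opposite to the neighboring gene NR2F1, which encodes an orphan nuclear receptor (COUP-TF1) with roles in development and in tumor cell dormancy. The gene gives several transcript variants that differ in their exons and 3′ ends, so probes at different places report different variants. Among the programs described below, the hypoxia response is driven by the HIF factors, which the prolyl hydroxylases of the EGLN family mark for destruction by VHL when oxygen is present. The NF-kappaB program includes chemokines and its own feedback inhibitors.

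The array held 4 probes for NR2F1-AS1, and their sequences are shown because their place on the gene decides which transcript they report. The file annotation places them on the minus strand of chromosome 5 (hg19) and names transcript variant 6 for the probe at chr5:92889467-92889526, variant 4 for that at chr5:92877924-92877983, and variant 1 for those at chr5:92746995-92747054 and chr5:92745544-92745603. It also matches each probe to several transcripts, and the variant 6 probe shares a transcript with the variant 1 probes. The named variant is therefore a label and not the only transcript a probe can report. The capitals mark the polyadenylation hexamer AATAAA, which 7.85% of the 58201 probes contain. It lies in the second variant 1 probe only.
A_22_P00006111 (variant 6): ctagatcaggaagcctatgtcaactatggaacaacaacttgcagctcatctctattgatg
A_24_P51080 (variant 4): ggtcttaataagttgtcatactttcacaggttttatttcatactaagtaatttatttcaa
A_22_P00006112 (variant 1): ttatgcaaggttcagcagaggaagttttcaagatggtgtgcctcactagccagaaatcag
A_19_P00320140 (variant 1): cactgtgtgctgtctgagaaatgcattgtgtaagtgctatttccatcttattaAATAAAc

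Both variant 1 probes of NR2F1-AS1 rose in BT474-Var1 cells, and the variant 4 probe did not come above background there. Levels are given throughout as the log2 intensity relative to the 75th percentile of the array, which is 0 on this scale. The second variant 1 probe, A_19_P00320140, was at -6.37 and -6.62 on the Control arrays, not well above background, and at -0.42 and -0.51 on the BT474-Var1 arrays, which is at least 15.1-fold higher (adjusted p = 0.00225, limma). The first variant 1 probe, A_22_P00006112, was at -4.31 and -3.61 in Control and at -0.19 and -0.22 in BT474-Var1 cells (log2 fold change 3.75 ± 0.24 SE, adjusted p = 0.00331). The groups lay far apart at both probes, and neither probe was well above background on a BT474-Var4 array. The variant 6 probe, A_22_P00006111, was at -5.76 and -4.16 in Control and at -1.69 and -1.52 in BT474-Var1 cells (log2 fold change 3.36 ± 0.53 SE, adjusted p = 0.0131), and its adjusted p became 0.0577 without BT474-Var1 A and 0.0620 without BT474-Var1 B. In BT474-Var4 cells this probe was at 3.01 and 3.02, above BT474-Var1 cells by 4.62 on the log2 scale (adjusted p = 0.00523). The variant 4 probe, A_24_P51080, was at -6.42 and -4.25 in Control and at -6.05 and -6.35 in BT474-Var1 cells, so it was not tested. It reached 1.67 and 1.50 in BT474-Var4 cells, where the probe reports the transfected variant.

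**Figure D1:**
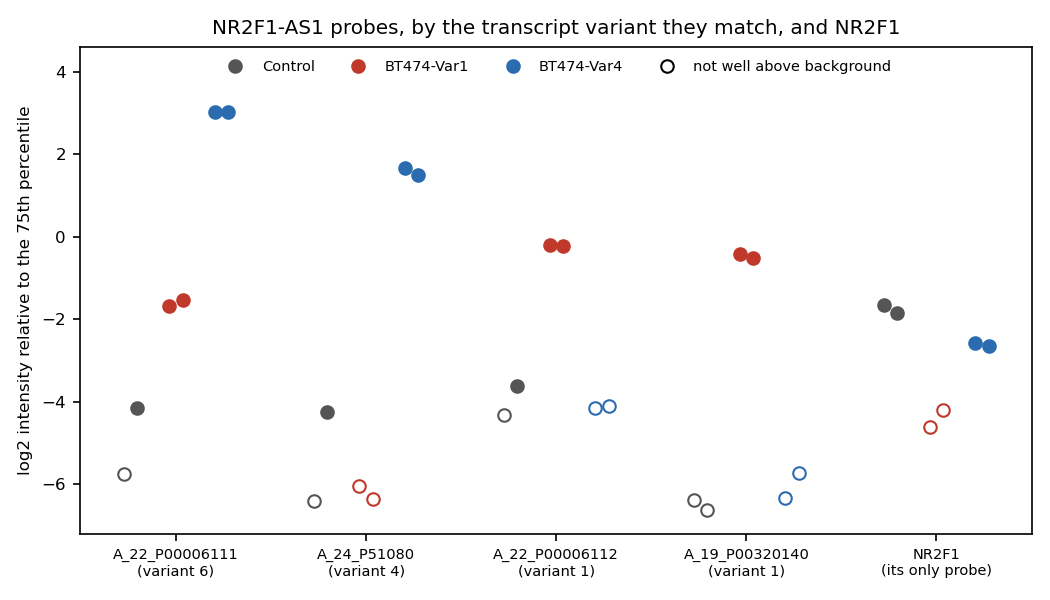
Levels of the 4 NR2F1-AS1 probes and of the only NR2F1 probe on all 6 arrays, as the log2 intensity relative to the 75th percentile of the array; each point is an array and open points were not well above background. The variant 1 probes were near 0 only on the BT474-Var1 arrays, the variant 4 probe was above background on the BT474-Var4 arrays and on 1 Control array, and NR2F1 was lowest in BT474-Var1 cells.

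NR2F1, the gene opposite the lncRNA, fell. Its probe was at -1.64 and -1.86 in Control and at -4.61 and -4.20 in BT474-Var1 cells, not well above background there, which is at least 4.83-fold lower (adjusted p = 0.00317). In BT474-Var4 cells it was at -2.58 and -2.65, at least 2.65-fold higher than in BT474-Var1 cells (adjusted p = 0.00314). NR2F2, which encodes the related receptor COUP-TFII, was at 4.31 and 4.30 in Control and at 3.97 and 4.02 in BT474-Var1 cells. It fell by 0.31 on the log2 scale (adjusted p = 0.0140), and without a Control or a BT474-Var1 array its adjusted p was as high as 0.0764. Of the 5 COUP-TF genes and antisense RNAs tested, 1 was called higher, the transfected NR2F1-AS1 itself, and 1 lower, NR2F1, with a median of -0.13.

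Across the tested probes, 1249 (3.94%) were called, that is, they had an adjusted p under 0.05 and a change of at least 2-fold. Of these, 883 were higher in BT474-Var1 cells (2.78% of those tested) and 366 lower (1.15%), so 70.7% of the called probes were higher, a share that quantile normalization lowered to 56.7% (734 higher, 561 lower). The called probes belonged to 1172 gene names. A change of 4-fold or more was seen in 185 higher and 48 lower probes, and one of 8-fold or more in 72 higher and 4 lower probes. With 1 probe per gene over 24526 gene names, 2.88% were called higher and 1.13% lower, 14.4% passed an adjusted p under 0.05 in the higher and 20.8% in the lower direction, and the median log2 fold change was -0.05. These shares, which are not matched for level, are the background for each gene group below, whose members were represented by the tested probe with the highest mean level. In bulk RNA of this kind, fewer cells of a type and less RNA per cell cannot be told apart.

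The calls were concentrated among dim probes. With the probes divided by mean level into 4 bins of equal size, 8.24% of the dimmest bin were called, against 3.92%, 2.54% and 1.06% in the next bins up to the brightest, and 363 called probes had 1 group that was not well above background on either array. The median log2 fold change fell with level too, from 0.07 in the dimmest bin through 0.03 and -0.07 to -0.13 in the brightest. Small falls in lists of bright genes were not separated from this trend. Protein-coding genes gave 363 called higher and 171 lower of 14416 tested. Among 1778 lncRNAs 65 were higher and 18 lower, and among 227 snoRNAs 2 were higher and 7 lower. The shares of well-above-background probes, 54.4% and 57.5% on the Control arrays and 53.2% and 56.4% on the BT474-Var1 arrays, and the replicate correlations, 0.996 and 0.993, did not set a group apart. The 75th percentile intensity before the shift was 108.2 and 105.8 on the Control arrays and 98.8 and 98.5 on the BT474-Var1 arrays. The fitted slope of the spike-in controls was 1.009 and 1.001 against 0.996 and 0.987. Whether these differences affect the fold changes was not tested. All arrays shared 1 slide and 1 scan, but both BT474-Var1 arrays lay in row 2 of the slide and the Control arrays in row 1, so the row and the group cannot be told apart.

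**Figure D2:**
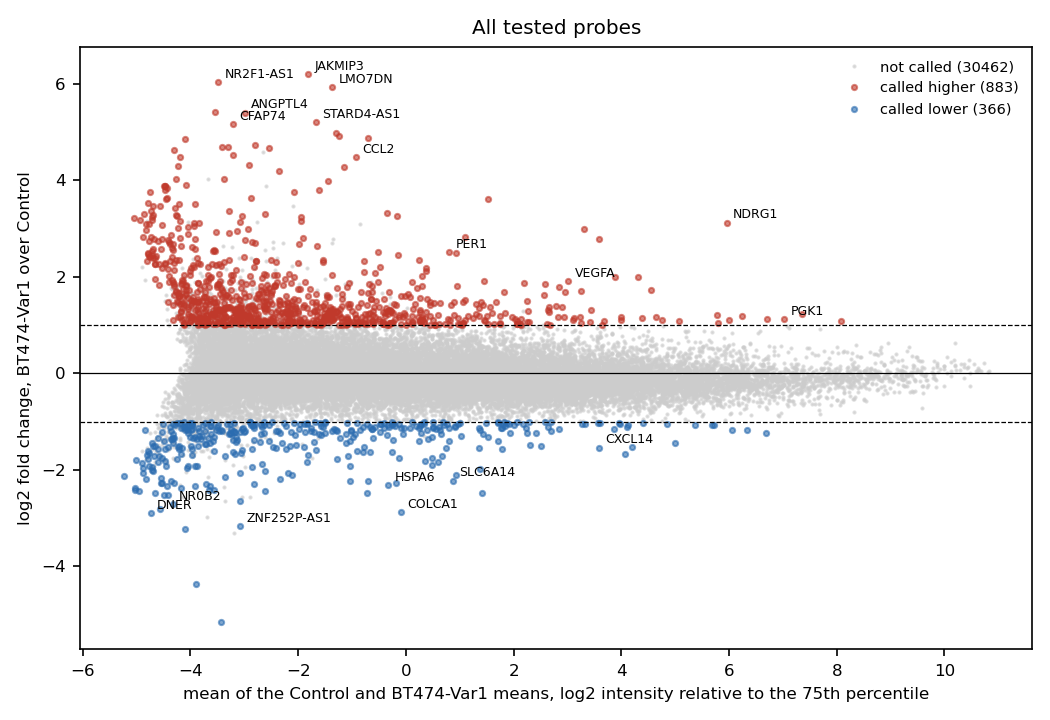
Log2 fold change of BT474-Var1 over Control against the mean of both groups' levels for the 31711 tested probes; each point is a probe, the dashed lines mark 2-fold, and called probes are colored. The 883 probes called higher reach further from 0 than the 366 called lower, and most large changes lie at low levels.

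The largest rises among named genes were in genes with little or no signal in Control cells. JAKMIP3, which encodes a coiled-coil protein of neurons and neuroendocrine cells, was at -4.00 and -5.81 in Control, not well above background, and at 1.30 and 1.28 in BT474-Var1 cells, at least 46.6-fold higher (adjusted p = 0.00560). STARD4-AS1, an antisense RNA beside the sterol carrier gene STARD4, went from -4.17 and -4.40 to 0.95 and 0.92, at least 37.1-fold higher (adjusted p = 0.00244). TMCC2 was measured on all 4 arrays, at -2.95 and -3.35 in Control and at 1.62 and 1.84 in BT474-Var1 cells, 29.4-fold higher (adjusted p = 0.00216). JAKMIP3, STARD4-AS1 and TMCC2 each had only 1 tested probe, so these rises could not be compared with another probe of the gene. None of these 3 genes was well above background on a BT474-Var4 array, so BT474-Var1 cells were at least 36.6-fold (JAKMIP3), 28.5-fold (STARD4-AS1) and 49.7-fold (TMCC2) higher than BT474-Var4 cells, with adjusted p of 0.00305, 0.00114 and 0.000742. DIO3, the deiodinase that inactivates thyroid hormones, rose on both of its probes, by 4.20 and 3.62 on the log2 scale (adjusted p = 0.00283 and 0.00285). The first went from -4.76 and -4.15 to -0.25 and -0.26. NEURL3, a ubiquitin ligase induced in inflammation, was not above background in Control and rose at least 15.3-fold (adjusted p = 0.00173).

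Some of the largest rises stood on 1 probe of a gene while another did not follow. The probe of LMO7DN that rose at least 60.2-fold (adjusted p = 0.00433) went from -4.13 and -4.54 to 1.65 and 1.53, and the other probe of that gene was at -1.89 and -1.67 in Control and at -1.63 and -3.11 in BT474-Var1 cells. For CFAP74 1 probe rose at least 13.4-fold (adjusted p = 0.00216) and the other had a log2 fold change of -0.01. For UXT, which encodes a prefoldin-like chaperone, the dim probe rose 30.4-fold (adjusted p = 0.00285) and the bright one had a log2 fold change of -0.25. LGI4 rose at least 17.3-fold with an adjusted p of 0.0117, which was as high as 0.0622 when 1 array was left out (Control A, BT474-Var1 A or BT474-Var1 B each ended the call). VSTM1 lay at -0.50 on BT474-Var1 A and at -3.42 on BT474-Var1 B, and its adjusted p of 0.0280 rose to 0.104 without Control A and to 0.114 without Control B. Over all genes with several tested probes of which at least 1 was called, 244 of 325 had the same sign on all of their probes, and 1 was called in both directions.

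The largest falls were smaller. DNER, a ligand of Notch receptors, was at -3.35 and -3.22 in Control and at -6.04 and -6.34, below background, in BT474-Var1 cells, at least 1.67-fold lower (adjusted p = 0.00435). COLCA1 went from 1.24 and 1.45 to -1.73 and -1.34, 7.37-fold lower (adjusted p = 0.00285), with a signal over background on each of the 4 arrays. NR0B2, the orphan receptor SHP that represses other nuclear receptors, was at -2.98 and -2.96 in Control and at -5.97 and -5.40, below background, in BT474-Var1 cells, at least 2.07-fold lower (adjusted p = 0.00376). KLK12, a secreted serine protease, went from 2.70 and 2.63 to 0.21 and 0.14, and BRINP2, a neuronal inhibitor of the cell cycle, from 0.52 and 0.52 to -2.10 and -1.84. Each was 5.61-fold lower (adjusted p = 0.00148 for KLK12 and 0.00225 for BRINP2). ZNF252P-AS1 had the largest fitted fall of the called genes with a RefSeq symbol, but its Control arrays stood at -2.27 and -0.73 and leaving out any 1 of the 6 arrays ended the call, with an adjusted p as high as 0.114. The groups did not overlap for any of these genes, which held for all 1249 called probes and for 71.9% of all probes tested.

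Most genes induced by hypoxia rose together. Of 65 hypoxia targets outside glycolysis 56 were tested, 43 passed higher and 3 lower, and 24 were called, all of them higher, with a median log2 fold change of 0.87 against -0.05 over all genes. The single BT474-Var1 arrays gave medians of 0.84 and 0.87. NDRG1, a stress-induced differentiation gene, was at 4.38 and 4.40 in Control and at 7.51 and 7.53 in BT474-Var1 cells, 8.72-fold higher (adjusted p = 0.000805), with each pair of arrays nearly coincident. VEGFA, the main angiogenic factor, went from 2.10 and 2.03 to 4.02 and 3.93, 3.77-fold higher (adjusted p = 0.00201), and its other tested probe rose by 1.47 on the log2 scale. ADM, the vasodilator adrenomedullin, went from 2.88 and 2.90 to 4.87 and 4.92 (log2 fold change 2.0 ± 0.05 SE, adjusted p = 0.00173). MIR210HG, the host transcript of the hypoxia-induced miR-210, was at -3.59 and -2.99 in Control and at 1.01 and 0.97 in BT474-Var1 cells, 19.4-fold higher (adjusted p = 0.00280). ANGPTL4, an inhibitor of lipoprotein lipase, was below background in Control and rose at least 17.1-fold (adjusted p = 0.00316).

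Other called members of the hypoxia list spanned mitophagy, hydroxylation and growth control. BNIP3, which drives mitophagy, went from 3.74 and 3.64 to 5.40 and 5.42 (adjusted p = 0.00229). DDIT4, an inhibitor of mTORC1, went from 2.43 and 2.37 to 4.11 and 4.11 (adjusted p = 0.00188), and P4HA1, a collagen prolyl hydroxylase, from 1.96 and 2.0 to 3.37 and 3.33 (adjusted p = 0.00280). The groups were well apart at each of them. CA9, a carbonic anhydrase and a usual hypoxia marker, was at -5.50 and -6.62, below background, in Control and at -2.33 and -3.65 in BT474-Var1 cells, at least 2.63-fold higher (adjusted p = 0.0226). Its spread was wide, and its adjusted p was 0.0531 without Control A, 0.0893 without Control B and 0.0716 without BT474-Var1 A. Among the 3 members that fell was TFRC, the transferrin receptor, from 6.09 and 6.03 to 5.35 and 5.35 (adjusted p = 0.00376). The number of members called higher lay between 18 and 26 over the alternatives tried.

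The oxygen sensing genes moved less as a list. Of 15 oxygen sensing genes 6 passed higher and 4 lower, 2 were called higher, and the median was 0.13. HIF1A, the oxygen-labile HIF subunit, was at 3.58 and 3.60 in Control and at 3.73 and 3.71 in BT474-Var1 cells (log2 fold change 0.13, adjusted p = 0.113). EPAS1, which encodes HIF-2alpha, had a log2 fold change of 0.15 (adjusted p = 0.101), and ARNT, the partner subunit, of -0.08 (adjusted p = 0.594). None of these passed. EGLN3, a prolyl hydroxylase, went from 0.06 and 0.21 to 1.69 and 1.40 (log2 fold change 1.41, adjusted p = 0.00444), and CITED2, which competes with HIF for its coactivator, rose by 1.17 on the log2 scale (adjusted p = 0.00235). Both genes count among the called hypoxia targets too. EGLN1, the main oxygen sensor, rose by 0.84 on the log2 scale (adjusted p = 0.00367), short of 2-fold.

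Glycolysis genes rose with the hypoxia targets. Of 28 tested, 22 passed higher, 1 passed lower, 9 were called higher and 0 lower, with a median log2 fold change of 0.73. ENO2, the gamma enolase, was at -1.01 and -0.84 in Control and at 1.37 and 1.47 in BT474-Var1 cells, 5.09-fold higher (adjusted p = 0.00225). PFKFB4 and PFKFB3, which set the level of the activator of phosphofructokinase, rose 3.78-fold (adjusted p = 0.00301) and 2.65-fold (adjusted p = 0.00225). PDK1, which keeps pyruvate out of the mitochondrion, went from 0.94 and 1.03 to 2.66 and 2.67, 3.21-fold higher (adjusted p = 0.00221). HK2, the inducible hexokinase, rose 2.24-fold (adjusted p = 0.00267) and PGK1, phosphoglycerate kinase, 2.18-fold, from 6.47 and 6.46 to 7.59 and 7.59 (adjusted p = 0.00248). LDHA, lactate dehydrogenase, stopped just short of 2-fold, at 1.92-fold (adjusted p = 0.00374). SLC2A1, the glucose transporter GLUT1, rose less, 1.30-fold (adjusted p = 0.0105, and as high as 0.0634 with 1 Control or BT474-Var1 array left out). ALDOC, the brain-type aldolase, went from -3.69 and -3.17 to -1.56 and -1.78, 3.38-fold higher (adjusted p = 0.00740).

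The same genes did not rise in BT474-Var4 cells to the BT474-Var1 level. NDRG1 was at 4.42 and 4.46 on the BT474-Var4 arrays, lower than in BT474-Var1 cells by -3.08 on the log2 scale (adjusted p = 0.000509). The difference was -1.90 for VEGFA (adjusted p = 0.00114), -4.61 for MIR210HG (adjusted p = 0.00123), which was well above background on 1 of the 2 BT474-Var4 arrays, -1.77 for PDK1 (adjusted p = 0.00114), -1.36 for ENO2 (adjusted p = 0.00171) and -0.97 for PGK1 (adjusted p = 0.00124). IGFBP3, a binding protein of insulin-like growth factors that the list also holds, differed far less: it rose 3.60-fold over Control (adjusted p = 0.00188) and BT474-Var4 cells differed from BT474-Var1 cells by -0.28 on the log2 scale (adjusted p = 0.0177).

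**Figure D3:**
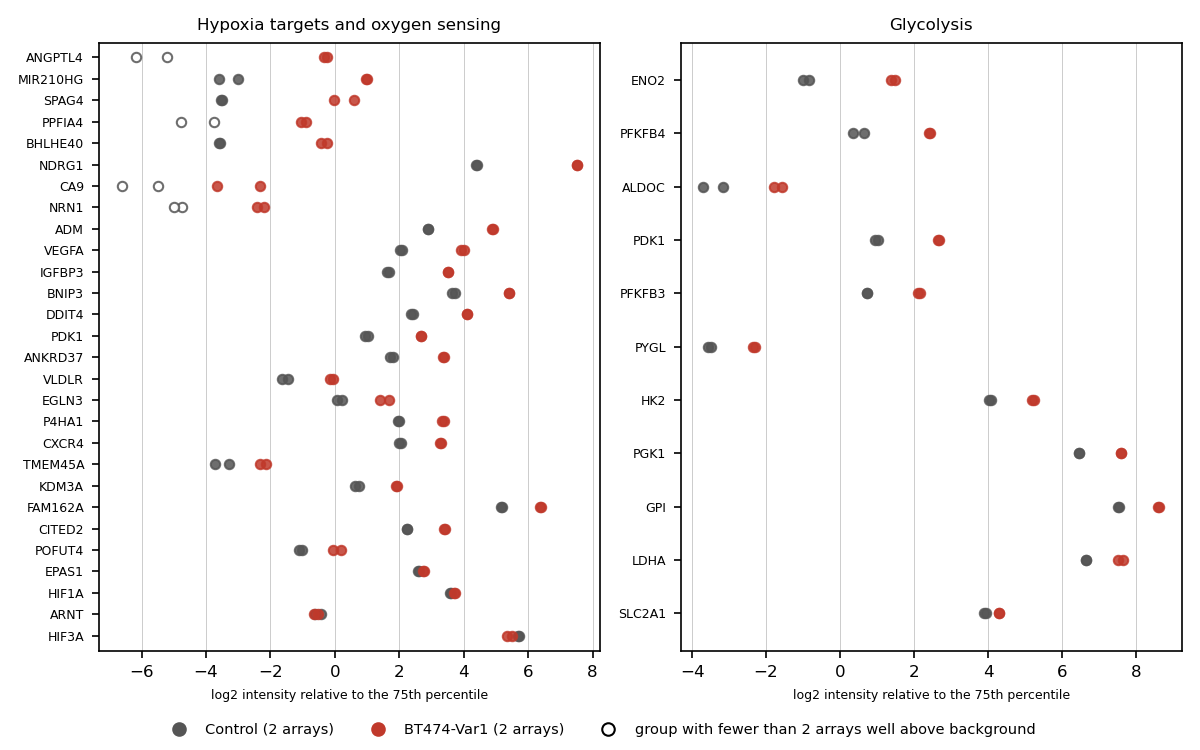
Levels of hypoxia, oxygen sensing and glycolysis genes on the 2 Control and the 2 BT474-Var1 arrays, as the log2 intensity relative to the 75th percentile; each point is an array. Targets such as NDRG1, VEGFA and MIR210HG lay higher on both BT474-Var1 arrays, and HIF1A, EPAS1 and ARNT stayed within 0.15 of Control.

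Promoter sequence was examined for the core of the hypoxia response element, ACGTG on either strand, which the E-box CACGTG contains. The windows were RefSeq promoters (GRCh38.p14) from 250 bases before to 50 bases after each gene's start. ACGTG was found in 21.6% of all 27305 promoters, in 25.6% of the 13012 tested genes with a promoter in the table, in 24.9% of the genes called higher and in 26.1% of those called lower. The hypoxia list held it in 27 of 46 promoters (58.7%), and its called members in 12 of 21 (57.1%). CACGTG was in 28.3% of the promoters of the hypoxia list and in 9.66% of those of the tested genes. Stretches of called genes are shown because they place the letters beside the genes described above, with matches on either strand in capitals. They lie at chr4:185396652-185396711 (ANKRD37, plus strand), chr3:4979187-4979246 (BHLHE40, plus), chr10:131982025-131982084 (BNIP3, minus), chr11:568595-568654 (MIR210HG, minus) and chr9:35673883-35673942 (CA9, plus).
ANKRD37: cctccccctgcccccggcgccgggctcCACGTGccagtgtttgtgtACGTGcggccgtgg
BHLHE40: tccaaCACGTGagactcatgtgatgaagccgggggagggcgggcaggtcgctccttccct
BNIP3: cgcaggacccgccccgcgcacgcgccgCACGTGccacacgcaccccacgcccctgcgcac
MIR210HG: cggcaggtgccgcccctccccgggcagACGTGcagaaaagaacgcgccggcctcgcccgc
CA9: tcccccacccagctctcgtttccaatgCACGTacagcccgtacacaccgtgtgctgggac

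ANKRD37, an ankyrin repeat gene, went from 1.79 and 1.71 in Control to 3.40 and 3.36 in BT474-Var1 cells (log2 fold change 1.63, adjusted p = 0.00225). A match describes the letters of this window and is not evidence that a factor binds there. The table gave no match within the window for ADM or EGLN3, which were called too.

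Several chemokines rose from low levels, while others fell. Of 18 tested, 7 were called higher and 1 lower, and 9 passed higher and 4 lower, with a median log2 fold change of 0.66. CCL2, which attracts monocytes, was at -3.19 and -3.14 in Control and at 1.31 and 1.32 in BT474-Var1 cells, 22.3-fold higher (adjusted p = 0.000474). CXCL1, which attracts neutrophils, went from -3.62 and -3.26 to 0.54 and 0.56, 15.8-fold higher (adjusted p = 0.00225). CXCL3 and CCL20, which were not above background in Control, rose at least 2.56-fold (adjusted p = 0.00654) and at least 2.04-fold (adjusted p = 0.00283). CXCL2 rose by 1.43 on the log2 scale on its brighter probe (adjusted p = 0.0186), which missed the threshold without BT474-Var1 A (0.0717) or BT474-Var1 B (0.0788), and by 4.02 on the other (adjusted p = 0.000805). CXCL10, an interferon-induced chemokine, rose at least 3.35-fold (adjusted p = 0.0108, and 0.0525 without BT474-Var1 B). CXCL14, an epithelial chemokine, moved the other way, from 4.38 and 4.32 to 2.83 and 2.80, 2.90-fold lower (adjusted p = 0.00221), and CXCL12 fell by 0.70 on the log2 scale (adjusted p = 0.00535). With normexp background correction and its offset of 50, which compresses dim probes, 2 members stayed called higher.

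Among 28 cytokine and NF-kappaB genes, 6 were called higher and 0 lower, 11 passed higher and 1 lower, and the median was 0.40. TNF was at -5.03 and -4.37, below background, in Control and at -1.08 and -1.06 in BT474-Var1 cells, at least 9.49-fold higher (adjusted p = 0.00331). TNFAIP3, the feedback inhibitor A20, went from -3.46 and -3.60 to -0.33 and -0.39, 8.98-fold higher (adjusted p = 0.00148). BIRC3, an inhibitor of apoptosis, rose 3.74-fold (adjusted p = 0.00221), RELB, a subunit of the noncanonical pathway, 3.23-fold (adjusted p = 0.00280), and NFKB2, its partner, 2.46-fold (adjusted p = 0.00270). ICAM1, an adhesion molecule for leukocytes, rose at least 2.63-fold (adjusted p = 0.00467). NFKBIA, which encodes IkappaB-alpha, rose by 0.67 on the log2 scale (adjusted p = 0.00459). LTB, lymphotoxin beta, which was among the largest rises, went from -5.93 and -5.02, below background, to -1.05 and -0.84, at least 10.8-fold higher (adjusted p = 0.00365).

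The hypoxia and glycolysis genes compared above were all lower in BT474-Var4 cells than in BT474-Var1 cells, whereas these genes differed in both directions. CCL2 was higher there than in BT474-Var1 cells by 0.84 on the log2 scale (adjusted p = 0.00160) and NFKBIA by 0.26 (adjusted p = 0.0252). For TNFAIP3 the difference was 0.10 (adjusted p = 0.334), for NEURL3 -0.09 (adjusted p = 0.601) and for TNF 0.67 (adjusted p = 0.0784), none of which passed. BIRC3 was slightly lower in BT474-Var4 cells, by -0.25 (adjusted p = 0.0376), and NFKB2 was lower by -0.37 (adjusted p = 0.0127). CXCL3 was at least 1.83-fold lower there (adjusted p = 0.0161), while CXCL1 was higher by 0.75 on the log2 scale (adjusted p = 0.0204). For LTB the difference of -0.90 did not pass (adjusted p = 0.0797).

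Interferon-stimulated genes rose in part. Of 38 tested, 17 passed higher and 3 lower, 8 were called higher and 0 lower, and the median was 0.24. IFITM1, a restriction factor at the membrane, went from -2.76 and -2.91 to -1.08 and -1.11, 3.34-fold higher (adjusted p = 0.00296), and IFIT1, a sensor of viral RNA, from -1.56 and -1.36 to 0.25 and 0.18, 3.20-fold higher (adjusted p = 0.00284). MX1 and OASL, further antiviral effectors, each rose 2.26-fold (adjusted p = 0.00260 and 0.00517). With normexp background correction 0 members were called at 2-fold, although no called member turned its direction. Of 26 antigen presentation genes 6 passed in each direction and 1 was called in each. HLA-DQB1 was called higher (1.20 on the log2 scale, adjusted p = 0.00275) and HLA-DQA1, which encodes the other chain of the same receptor, lower (-1.78, adjusted p = 0.00280). The median, -0.00, changed sign between settings. Of 19 acute-phase and antimicrobial genes 5 passed higher, 3 lower and 0 were called, with a median of 0.00.

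Several immediate early genes of the AP-1 and EGR families rose. Of 30 tested genes of AP-1, the immediate early response and ERK feedback, 15 passed higher and 6 lower, 6 were called higher and 0 lower, and the median was 0.40. FOS, an AP-1 subunit, was at -0.58 and -0.44 in Control and at 1.08 and 1.01 in BT474-Var1 cells, 2.94-fold higher (adjusted p = 0.00280). DUSP1, which switches off MAP kinases, went from 2.12 and 2.08 to 3.46 and 3.53, 2.64-fold higher (adjusted p = 0.00225). EGR4 rose 3.59-fold (adjusted p = 0.00188), JUN 2.04-fold (adjusted p = 0.00447), and ATF3 by 1.31 on the log2 scale (adjusted p = 0.00270), with 3 of the 4 ATF3 probes called. DUSP6, the feedback phosphatase of ERK, fell by 0.78 on the log2 scale (adjusted p = 0.0117, as high as 0.0637 with 1 Control or BT474-Var1 array left out), and MYC fell by 0.62 (adjusted p = 0.00386).

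Clock genes rose as well. All 18 were tested, 14 passed higher and 1 lower, and 7 were called higher and 0 lower, with a median of 0.64. BHLHE40, the repressor DEC1, went from -3.60 and -3.55 to -0.43 and -0.24, 9.45-fold higher (adjusted p = 0.00189), and it counts among the hypoxia targets too. PER1, a core repressor of the clock, was at -0.46 and -0.44 in Control and at 2.0 and 2.11 in BT474-Var1 cells, 5.68-fold higher (adjusted p = 0.00148). BHLHE41, the repressor DEC2, rose 5.74-fold (adjusted p = 0.00283). The PAR-domain output factors DBP and HLF rose 2.68-fold (adjusted p = 0.00370) and 2.60-fold (adjusted p = 0.00260). CIART, a repressor below background in Control, rose at least 2.77-fold (adjusted p = 0.00887). BMAL1, the activator, rose by 0.33 on the log2 scale (adjusted p = 0.0163), CLOCK had a log2 fold change of -0.05 (adjusted p = 0.67) and PER2 of -0.28 (adjusted p = 0.0481).

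**Figure D4:**
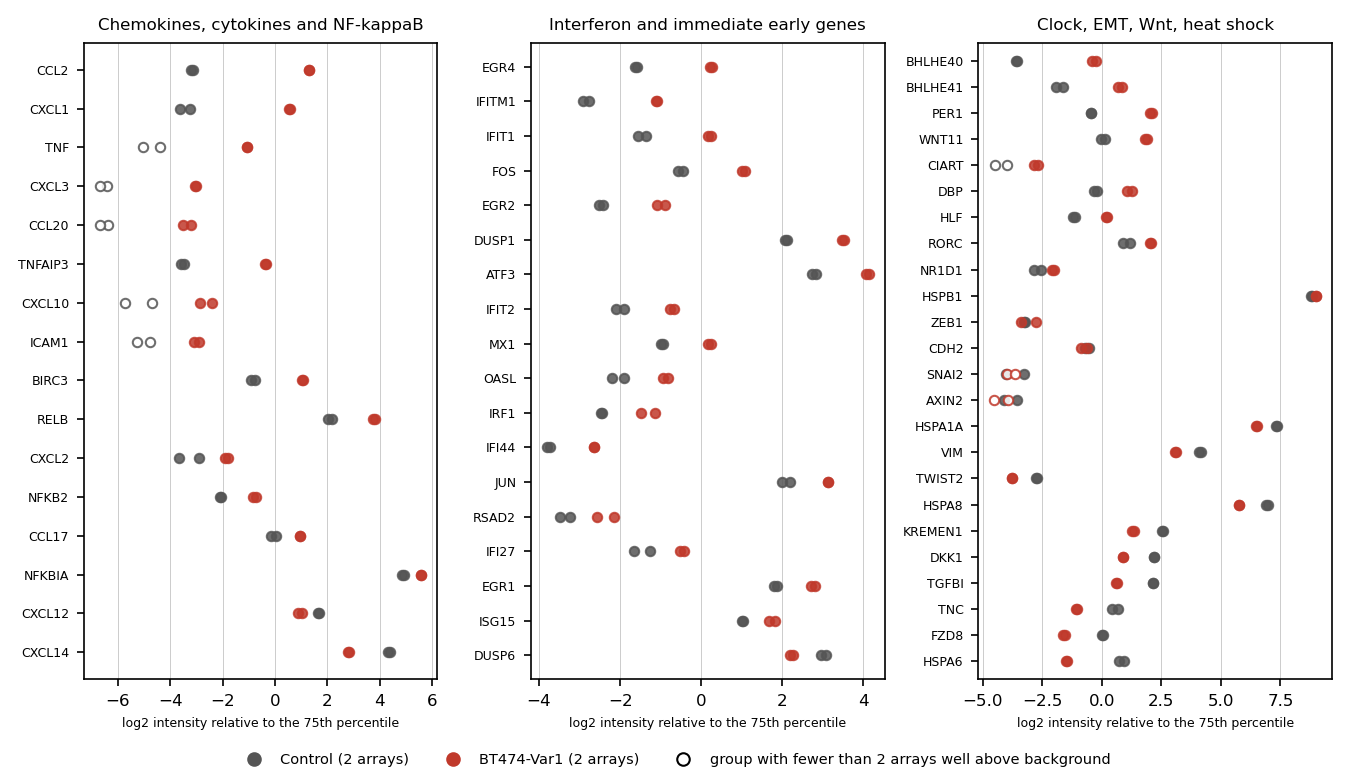
Levels of genes of chemokine, cytokine, NF-kappaB, interferon, immediate early, clock, EMT, Wnt and heat shock lists on the 2 Control and the 2 BT474-Var1 arrays, as the log2 intensity relative to the 75th percentile; each point is an array, and open points belong to a group with fewer than 2 arrays well above background. CCL2, FOS and PER1 lay higher on both BT474-Var1 arrays, and HSPA6, TGFBI and CXCL14 lower.

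Most mitosis and DNA replication genes fell by small amounts. Of 58 mitosis genes 41 passed lower, 0 passed higher and 0 were called, with a median of -0.40. CCNB1, cyclin B1, went from 5.25 and 5.22 to 4.56 and 4.58 (adjusted p = 0.00486), AURKA, a spindle kinase, from 6.05 and 5.93 to 5.39 and 5.44 (adjusted p = 0.00612), and FOXM1, a transcription factor of mitotic genes, from 3.33 and 3.26 to 2.60 and 2.70 (adjusted p = 0.00507). Their folds were 1.58 (CCNB1), 1.49 (AURKA) and 1.57 (FOXM1) lower, larger than the spread of the arrays and short of 2-fold. MKI67, the marker Ki-67, fell by 0.58 on the log2 scale on its brightest probe (adjusted p = 0.00709) and had a log2 fold change of -0.16 on another (adjusted p = 0.201). Of 48 DNA replication genes 28 passed lower and 0 higher, with a median of -0.24. GINS2, a subunit of the replicative helicase, fell the most, by 0.99 (adjusted p = 0.0034). Of 18 G1 cyclins and CDK inhibitors 6 passed lower and 1 higher (median -0.14), and CCND1, cyclin D1, had a log2 fold change of -0.08 (adjusted p = 0.364).

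Some oxidative phosphorylation genes fell slightly. Of 57 tested 27 passed lower, 30 did not pass and 0 were called, with a median of -0.20 that was -0.08 with quantile normalization. ATP5F1B, a subunit of ATP synthase, fell by 0.73 on the log2 scale (adjusted p = 0.0039). Of 69 cytosolic ribosomal protein genes 1 passed higher and 7 lower, and their median of -0.05 was that of all genes, taken over all levels.

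The markers of luminal breast cells changed by less than 2-fold, with log2 fold changes between -0.66 and 0.62. Of 10 luminal markers 3 passed higher, 4 lower and 0 were called, with a median of -0.03 that changed sign between settings. KRT19, a luminal keratin, rose from 9.90 and 9.86 to 10.48 and 10.52 (adjusted p = 0.00435), and GATA3, a luminal transcription factor, was at 4.32 and 4.29 in Control and at 4.51 and 4.43 in BT474-Var1 cells (adjusted p = 0.0837). FOXA1, the pioneer factor for ER, fell by 0.50 on the log2 scale (adjusted p = 0.00518) and CDH1, E-cadherin, by 0.47 (adjusted p = 0.00577). ERBB2, which encodes HER2, was at 8.63 and 8.59 in Control and at 8.83 and 8.83 in BT474-Var1 cells, a rise of 0.22 (adjusted p = 0.0292) that did not pass with any 1 array left out (adjusted p up to 0.130). The 22 tested genes of its region on 17q12 had a median of 0.07, with 0 called. Of 17 luminal transcription factors 4 passed higher, 5 lower and 1, the glucocorticoid receptor NR3C1, was called (1.03 on the log2 scale, adjusted p = 0.00405), with a median of 0.09. Markers of other cell types were largely below background: 3 of 8 basal and myoepithelial markers were tested and 1 was called, KRT14, at least 2.43-fold higher (adjusted p = 0.00473) on 1 of its 2 probes. Of the fibroblast markers 4 of 10 were tested, of the leukocyte markers 4 of 10 and of the endothelial markers 3 of 8, with 0 called and medians of 0.16, 0.00 and -0.27.

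Estrogen-induced genes fell more often than they rose. Of 46 tested 26 passed lower and 2 higher, 2 were called lower and 1 higher, and the median was -0.30. ESR1, which encodes ER, was at 2.11 and 2.18 in Control and at 1.95 and 2.09 in BT474-Var1 cells on its brightest probe (log2 fold change -0.13, adjusted p = 0.236), so it did not pass. GREB1, a coactivator of ER, went from 4.34 and 4.36 to 3.86 and 3.85 (adjusted p = 0.00531) and PGR, the progesterone receptor, from 4.77 and 4.77 to 4.46 and 4.52 (adjusted p = 0.0185, up to 0.0880 with 1 Control or BT474-Var1 array left out). TFF1, a secreted trefoil peptide, had a log2 fold change of 0.18 (adjusted p = 0.0586). The called members were the receptor kinase RET (-1.13, adjusted p = 0.00270), the exchange factor TIAM1 (-1.14, adjusted p = 0.00400) and the matricellular protein CCN5 (1.08, adjusted p = 0.00376). In the EGFR family 2 of 15 genes were called higher and 1 lower. EGFR went from -0.97 and -0.69 to 0.71 and 0.85, 3.05-fold higher (adjusted p = 0.00435), and NRG3, a neuregulin, fell by 1.20 (adjusted p = 0.00690). EREG, a ligand, rose at least 4.02-fold (adjusted p = 0.0262), with an adjusted p of 0.114 without Control A, 0.0849 without Control B and 0.0509 without BT474-Var4 A or B. Of the EGFR family 4 passed higher and 5 lower, with a median of -0.10 that changed sign between settings.

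Genes of the mesenchymal state did not rise as a list. Of 31 EMT and mesenchymal genes 20 were tested, 3 passed higher and 6 lower, and 4 were called, all lower. The median of -0.19 changed sign between settings. VIM, vimentin, went from 4.14 and 4.08 to 3.07 and 3.09, 2.04-fold lower (adjusted p = 0.00387), TGFBI from 2.13 and 2.14 to 0.57 and 0.61, 2.91-fold lower (adjusted p = 0.00221), and TNC, the matrix protein tenascin C, from 0.43 and 0.68 to -1.06 and -1.07, 3.07-fold lower (adjusted p = 0.00324). TWIST2, a transcription factor of the list, fell by 1.04 on the log2 scale (adjusted p = 0.00459). CDH2, N-cadherin, had a log2 fold change of -0.11 (adjusted p = 0.510) on its brighter probe. Of 31 epithelial junction genes 8 passed higher, 7 lower and 0 were called (median -0.07, of changing sign). Of 22 collagens 4 passed higher and 10 lower and 2 were called each way, with COL7A1, the anchoring fibril collagen, 2.75-fold higher (adjusted p = 0.00459) and COL12A1 2.86-fold lower (adjusted p = 0.00260), and the median of -0.28 changed sign between settings. Of 27 integrins and laminins 3 passed higher and 8 lower, with ITGA10 called higher (1.20, adjusted p = 0.00497) and ITGA6 lower (-1.01, adjusted p = 0.00296). Of 16 matrix proteases and inhibitors 1 passed higher, 3 lower and 0 were called (median -0.13).

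Ligands and antagonists of developmental pathways moved singly. Of 31 tested Wnt genes 7 passed higher and 10 lower, with a median of -0.14 that changed sign between settings. WNT11, a noncanonical ligand, went from -0.05 and 0.15 to 1.81 and 1.89, 3.48-fold higher (adjusted p = 0.00296), and the antagonist DKK1 from 2.20 and 2.19 to 0.88 and 0.86, 2.50-fold lower (adjusted p = 0.00221). FZD8, a receptor, fell 3.11-fold (adjusted p = 0.00260) and KREMEN1, the coreceptor of DKK1, 2.35-fold (adjusted p = 0.00260) on its brightest probe, while 1 of its 3 probes did not follow. AXIN2, the usual readout of the canonical pathway, was at -3.58 and -4.12 in Control and at -3.93 and -4.52 in BT474-Var1 cells (adjusted p = 0.370). Of 24 TGF-beta genes 8 passed higher and 5 lower, and 2 were called each way: GDF15, a stress-induced ligand, rose 2.25-fold (adjusted p = 0.00244) and LTBP1, which anchors the latent ligand, fell 2.16-fold (adjusted p = 0.00375). The ligand TGFB1 was called higher (1.50 on the log2 scale, adjusted p = 0.0434), but leaving out any Control or BT474-Var1 array ended the call (adjusted p up to 0.154), and TGFB3 was called lower (-1.23, adjusted p = 0.00285). Of 17 BMP genes 6 passed higher, 5 lower and 2 were called higher (median 0.15). ID1, a BMP target, rose by 0.73 on the log2 scale (adjusted p = 0.00372). Of 17 Notch genes 3 passed higher and 6 lower (median -0.32), and the effectors split, HEY1 at 1.08 (adjusted p = 0.00508) and HEY2 at -1.05 (adjusted p = 0.00481).

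Of 19 retinoid genes 6 passed each way and 1 was called, RDH12, a retinol dehydrogenase not above background in Control, at least 4.63-fold higher (adjusted p = 0.00762). CRABP2, which carries retinoic acid to its receptor, went from 2.06 and 2.05 to 2.99 and 3.11 (adjusted p = 0.00370), just under 2-fold, and its dimmer probe had a log2 fold change of -0.10. Of 12 tested pluripotency and breast stem cell genes 2 passed higher and 7 lower, and 1 was called higher and 2 lower, with a median of -0.42. SOX2, a pluripotency factor, went from 1.26 and 1.25 to -0.69 and -0.43, 3.52-fold lower (adjusted p = 0.00287). NANOG was at -4.56 and -3.86 in Control and at -2.41 and -2.85 in BT474-Var1 cells (log2 fold change 1.58, adjusted p = 0.0233), with an adjusted p of 0.0803 without Control A, 0.0940 without BT474-Var1 A and 0.0590 without BT474-Var1 B, and 0.0524 with the replicate block.

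Most heat shock and metallothionein genes fell. Of 24 heat shock genes 16 passed lower and 1 higher, 2 were called lower and 0 higher, and the median was -0.57. HSPA6, the strictly inducible HSP70, went from 0.94 and 0.72 to -1.48 and -1.49, 4.99-fold lower (adjusted p = 0.00226). HSPA8, the constitutive HSC70, went from 6.97 and 6.89 to 5.74 and 5.78, 2.25-fold lower (adjusted p = 0.00267), and HSPA1A, an inducible HSP70, from 7.36 and 7.33 to 6.48 and 6.50, 1.81-fold lower (adjusted p = 0.00296). BT474-Var4 cells lay higher than BT474-Var1 cells at all of these, by 3.80 for HSPA6 (adjusted p = 0.000770), 2.07 for HSPA1A (adjusted p = 0.000742) and 1.27 for HSPA8 on the log2 scale. Of 10 metallothionein genes and regulators 7 passed lower, 0 higher and 0 were called (median -0.42). MT2A, the main isoform, fell by 0.56 (adjusted p = 0.00473) and MT1E by 0.74 (adjusted p = 0.0037). Of 31 genes of the unfolded protein and integrated stress response 6 passed higher and 16 lower, and 2 were called higher and 1 lower, with a median of -0.23. SLC7A11, the cystine importer, fell 2.21-fold (adjusted p = 0.00343). Of 30 antioxidant genes 5 passed higher and 12 lower (median -0.21).

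Lipid, transport and survival genes completed the lists. Of 23 PPAR targets and fatty acid oxidation genes 7 passed higher, 6 lower and 4 were called, all higher. Beside ANGPTL4 these were CD36, the fatty acid receptor, at least 3.18-fold higher (adjusted p = 0.00173), G0S2, an inhibitor of lipolysis, at least 2.25-fold higher (adjusted p = 0.00367), and PPARG itself, from -2.70 and -2.56 to -1.31 and -1.45 (adjusted p = 0.00338). The median of 0.05 changed sign between settings, as did that of 33 sterol and fatty acid synthesis genes (-0.06), of which 4 passed higher and 9 lower and ACACB was called higher (1.43, adjusted p = 0.00524). Of 27 amino acid transporters 3 passed higher, 10 lower and 2 were called lower, with SLC6A14 at 1.96 and 2.0 in Control and at -0.29 and -0.19 in BT474-Var1 cells, 4.66-fold lower (adjusted p = 0.00173). Of 18 BCL2 family genes 6 passed higher and 5 lower, with BBC3, the p53 target PUMA, 2.23-fold higher (adjusted p = 0.00476). Of 14 genes of the IGF system 5 passed higher and 4 lower and 2 were called higher. Of 31 JAK, STAT and SOCS genes 3 passed higher, 5 lower and 0 were called (median -0.03). Of 17 keratins 5 passed higher and 1 lower (median 0.17), and of 9 mucins 3 higher and 2 lower.

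Among 29 known cancer lncRNAs 8 passed higher and 10 lower, and 2 were called higher, MIR210HG and UCA1. UCA1, a lncRNA of bladder cancer, went from 1.70 and 1.73 to 2.77 and 2.79 (adjusted p = 0.00265). NEAT1, the scaffold of paraspeckles, rose by 0.88 on the log2 scale on its brightest probe (adjusted p = 0.00376), and its other tested probes rose past 2-fold. MALAT1 had a log2 fold change of 0.16 on its brightest probe (adjusted p = 0.136).

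**Figure D5:**
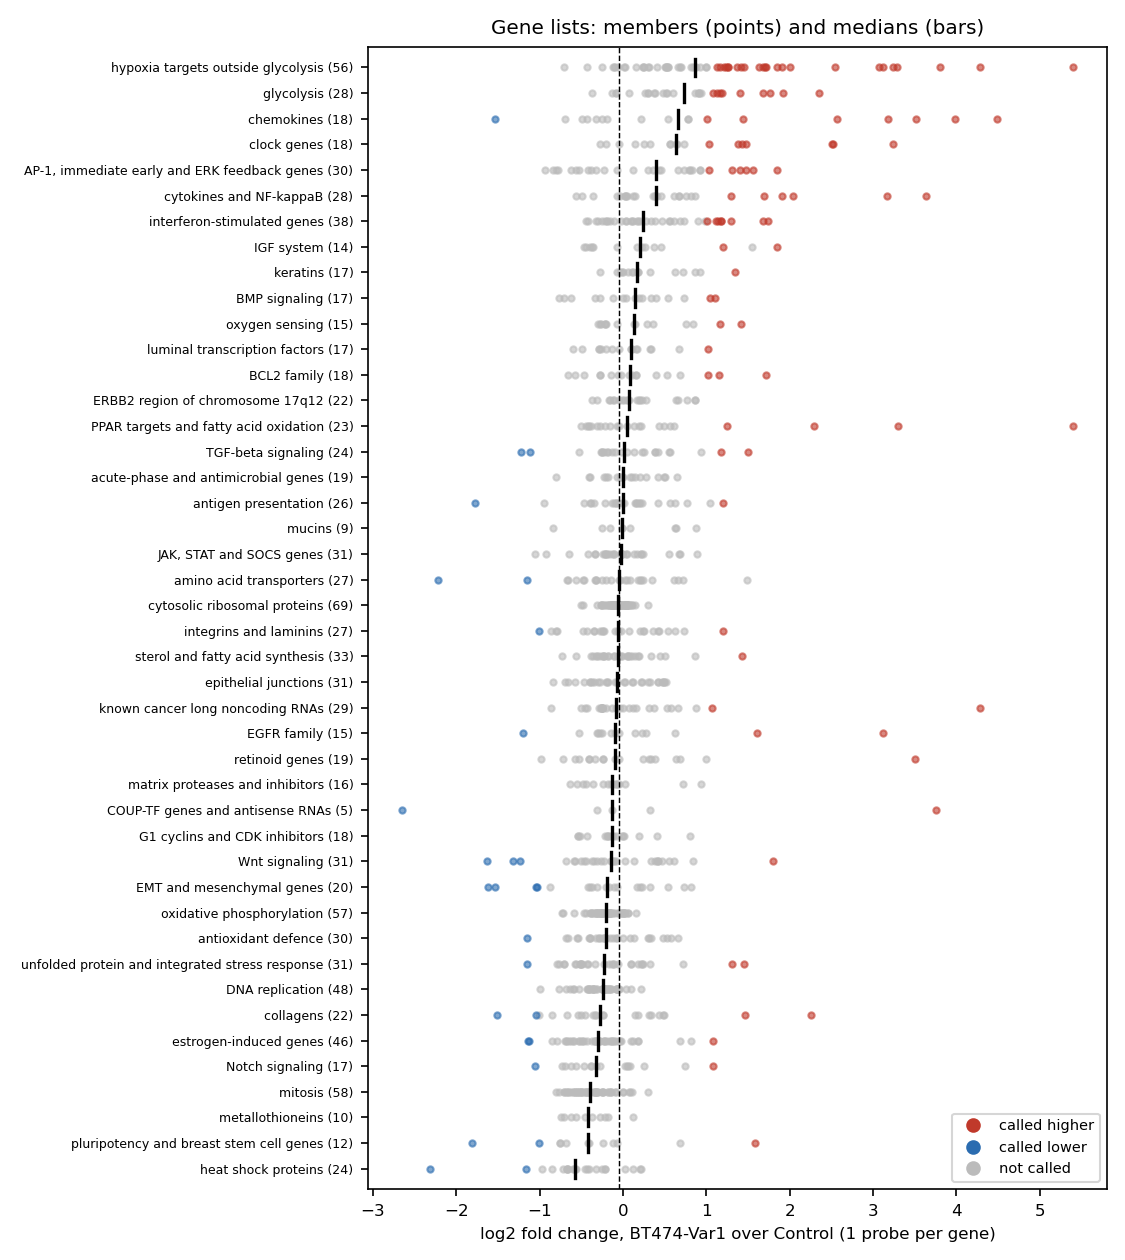
Log2 fold change of BT474-Var1 over Control for the members of the gene lists, 1 probe per gene; each small point is a gene, the larger mark is the median of the list, and the dashed line is the median of all genes at -0.05. The hypoxia (0.87), glycolysis (0.73), chemokine (0.66) and clock (0.64) lists have the highest medians and the heat shock list (-0.57) the lowest.

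Some probes were detected in 1 group alone. Well above background on both BT474-Var1 arrays and on no Control array were 353 probes, of which 230 were called, with a median bound of 2.19-fold. Well above background on both Control arrays alone were 689 probes, of which 133 were called, with a median bound of 1.28-fold. Over all tested probes 3.94% were called, but these probes were tested because 1 group was bright and the other dim, so their counts only describe them. The brightest of the first kind were LMO7DN, JAKMIP3 and STARD4-AS1. The brightest called gene of the second kind with a stable call was NR2F1, followed by APELA, a peptide hormone, at -2.28 and -1.83 in Control and at -3.82 and -4.44 in BT474-Var1 cells. RASSF10 was at 2.39 on BT474-Var1 A but at -3.12 on BT474-Var1 B (adjusted p = 0.125), and its other probe was lower in BT474-Var1 cells, so no direction can be given.

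Along the chromosomes, the changes were spread. Per-chromosome medians lay between -0.09 and 0.02, and between 2.36% (chromosome 22) and 5.85% (chromosome 14) of the genes were called. Over 548 windows of 5 Mb with at least 10 tested genes the median of the window medians was -0.06, with the 5th and 95th percentiles at -0.20 and 0.09. The lowest window, at 115 to 120 Mb of chromosome 7 (hg19), had a median of -0.52 over 16 genes, with 4 called lower and 1 higher, and a median of 0.04 for BT474-Var4 over Control. It holds CTTNBP2, a neuronal cytoskeleton gene, at -0.27 and -0.38 in Control and at -1.67 and -1.63 in BT474-Var1 cells (2.51-fold lower, adjusted p = 0.00280), and CAV1, caveolin 1, at -1.01 and -1.0 in Control and at -1.79 and -2.23 in BT474-Var1 cells (adjusted p = 0.0121, but 0.0643 without Control A and 0.0639 without Control B). The highest median was 0.31, in the adjoining window at 110 to 115 Mb of chromosome 7. That window had 15 genes, of which 53.3% lay above 0 and 1 was called higher. A window of chromosome 15 at 20 to 25 Mb had a median of 0.28 over 54 genes with 6 called higher.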

How the data were processed

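RNA was labeled with Cy3 and hybridized to single-color Agilent arrays, and the authors read the spot values with Feature Extraction, whose version, 11.5.1.1, stands in the submitters' processing notes and which subtracts background. The deposited scanner files hold each spot's processed intensity on a linear scale, and the deposited table holds the authors' log2 values after their shift to the 75th percentile of each array, in which 0 is that percentile; it was used as an alternative. The array design number in the file headers differs from the one in the methods.

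Here the processed intensity was put on the log2 scale and shifted so that the 75th percentile over non-control probes was 0, with replicate spots averaged per probe after removal of outlier spots; 34 tested probes then lacked a value on an array. Probes well above background on both arrays of a compared group were tested. limma 3.58.1 in R 4.3.3 fitted group means to all 6 arrays (3 residual and 1.54 prior degrees of freedom), with Benjamini-Hochberg adjustment over the 31711 probes. A probe passed at an adjusted p under 0.05 and was called where it also changed at least 2-fold. The methods' test, a one-way analysis of variance, was run as an alternative. "At least" folds set the brighter group's mean against, per array of the other group, the higher of the dimmest well-above-background signal and the probe's own. Fold changes of dim probes are the less precise. Probes were named from the file annotation, updated through RefSeq by accession (31104), symbol (3366) or synonym (496), and 23235 kept the file's name.

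Up to 15 rises and 15 falls, the core and the most changed called members of 49 gene lists, all NR2F1-AS1 probes, and genes detected in 1 group alone or leading a window were named by rule, and other genes were chosen after their values were seen (TFRC, EGLN1, MYC, BMAL1, CLOCK, PER2, FOXM1, GINS2, ATP5F1B and MT1E). The members and lists were chosen with earlier results of these data known. The fit was tested on simulated data. Alternatives were normexp background correction, quantile normalization, the deposited table, other filters, only the 4 arrays compared, eBayes with trend and robust estimation, a block for the replicate letter, the analysis of variance, the mean over a gene's probes, and each array left out in turn. Normexp added an offset of 50 to each intensity. Leaving out either BT474-Var4 array gave the same result for this comparison as only the 4 arrays compared. The number of arrays limits the precision. Some genes are not reported here.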

Additional observations from a re-analysis of the deposited data

How the results depend on the processing

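The number of called probes, 1249, fell to 170 with normexp background correction and its offset of 50, which shrinks differences of dim probes. The 75th percentile intensity was 98.5 to 108.2 on the arrays compared, and normexp was not run without the offset. The number was 773 where a probe had to be well above background on all 4 arrays, a filter that tests fewer probes (28824). Leaving out 1 array at a time gave 998 to 1218 called probes. The other settings gave 1295 with quantile normalization, 1228 with the deposited table, 1019 without a filter, 1204 with only the 4 arrays compared, 1443 with trend and robust estimation, 867 with the methods' analysis of variance and 983 as distinct genes. The share of called probes that were higher, 70.7%, was 63.5% with normexp, 56.7% with quantile normalization and 65.8% to 71.5% with 1 array left out. With the replicate block 1170 probes were called, 70.6% of them higher. Arrays of the same letter did not deviate together (r = -0.01, 0.04 and -0.02), which shows no shared effect of a letter but cannot tell whether such samples were handled together. No probe that was called both in a setting and in the main fit changed direction between them. Probes called in only 1 of the 2 fits were not compared in this way. Of 280 named probes 155 were called, and 128 of these kept their direction and an adjusted p under 0.05 in each setting that tested them, while 27 lost it in at least 1. The filter for all 4 arrays tested only 108 of the 155. The median of the hypoxia list lay between 0.49 and 0.92, that of glycolysis between 0.46 and 0.76, of chemokines between 0.21 and 0.67, of clock genes between 0.29 and 0.67, of mitosis genes between -0.40 and -0.30 and of heat shock genes between -0.58 and -0.45. The medians of 19 of 49 lists changed sign in at least 1 setting. Beyond normexp and the filter, the cause of these shifts was not tested. Quantile normalization moved the medians of oxidative phosphorylation (-0.08), DNA replication (-0.12), stress response (-0.12) and antioxidant genes (-0.09) toward the median of all probes, -0.05. Between 53.2% and 57.5% of the probes were well above background on the arrays compared, and 53.1% and 47.6% on the BT474-Var4 arrays, which limits what dim genes can show.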

Other observations

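Further called genes were outside the lists and were chosen after their values were seen. PIP, a secreted protein of apocrine breast epithelium, was at 3.34 and 3.27 in Control and at 5.29 and 5.33 in BT474-Var1 cells (log2 fold change 2.0, adjusted p = 0.00221, limma), and BT474-Var4 cells lay below BT474-Var1 cells by -3.61 (adjusted p = 0.000665). CYP1A1, a target of the aryl hydrocarbon receptor, rose from 1.94 and 2.03 to 3.34 and 3.28 (adjusted p = 0.00294). TERT, the catalytic subunit of telomerase, rose from -0.63 and -0.70 to 0.59 and 0.60 (adjusted p = 0.00260). XDH, xanthine dehydrogenase, rose by 2.70 on the log2 scale (adjusted p = 0.00890).

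Among the falls, CHGA, chromogranin A, went from 0.92 and 1.00 to -1.37 and -1.27, 4.86-fold lower (adjusted p = 0.00182), and GAL, the neuropeptide galanin, from 3.02 and 3.05 to 1.55 and 1.57, 2.78-fold lower (adjusted p = 0.00260). SNORA67, a small nucleolar RNA, went from 4.92 and 4.88 to 3.28 and 3.18 (adjusted p = 0.00260), and BT474-Var4 cells differed from BT474-Var1 cells by -0.05 there (adjusted p = 0.625).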
